A study of Mus musculus with 2 samples.

Results

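The mitochondrial genome of the mouse is a small circle that carries 37 of the 52768 genes listed in the expression tables. All genes placed on chromosome M by the annotation of the GRCm38 build were taken, without regard to their values. They comprise 13 mRNAs, 2 rRNAs and 22 tRNAs, and every one was found in both tables.

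RNA sequencing was done on interscapular brown adipose tissue (iBAT) of C57BL/6 mice at 8 weeks of age. BKO mice carried METTL3flox/flox together with UCP1-iCre+/-, in which the *Ucp1* locus drives iCre and thereby deletes *Mettl3*, the catalytic subunit of the m6A methyltransferase of mRNA, in brown adipocytes. Control mice carried METTL3flox/flox alone, so both groups share the floxed alleles. For each genotype, RNA from 4 mice went into 1 pooled library. Cells that do not express *Ucp1* keep *Mettl3*. Single libraries allow neither a test between the genotypes nor a replicate check, and every difference below describes these 2 libraries. Intervals in parentheses are 95% and cover counting error only.

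Mitochondrial DNA is read from both strands into long RNAs that span several genes. Enzymes cut out the tRNAs, which lie between most of the other genes, and so release the mRNAs and rRNAs. The mRNAs encode subunits of respiratory complexes I, III, IV and V, and the rRNAs and tRNAs serve the mitochondrial ribosome that translates them. Every other protein of the organelle is encoded in the nucleus. Brown adipocytes are packed with mitochondria, in which UCP1 lets protons back across the inner membrane and so turns the work of these complexes into heat.

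A large stretch of the mouse mitochondrial genome also exists as an almost unchanged copy on chromosome 1, and this copy bears on which of the values can be read. It is annotated there as 7 pseudogenes (chr1:24611535-24616197, minus strand, 4663 bases), which match chrM:6390-11042 (4653 bases) from within *mt-Co1* to within *mt-Nd4*. Gm28661 (for *mt-Co2*), Gm10925 (*mt-Atp6*), Gm28437 (*mt-Co3*), Gm10222 (*mt-Nd4l*) and Gm28439 (first 876 bases of *mt-Nd4*) matched with 100% identity. Gm29216 (for the end of *mt-Co1*) and Gm28438 (*mt-Nd3*) each differed from the mitochondrial gene at 1 base of the aligned stretch. The distances between neighbouring genes were the same in both places, except that 73 bases separate the aligned parts of *mt-Nd3* and *mt-Nd4l* and 74 bases separate their copies.

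The start of *mt-Nd3* (chrM:9459-9518, plus strand) and of its copy (chr1:24613060-24613119, minus strand) show how alike the pair is, with the differing base in capitals. It is T3C, counted from the first base of the gene.
mt-Nd3: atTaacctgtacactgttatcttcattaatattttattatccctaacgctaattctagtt
Gm28438: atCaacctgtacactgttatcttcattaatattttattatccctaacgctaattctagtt

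The edge of the copied stretch lies in *mt-Co1*. The next pair shows it, in chrM:6381-6440 (plus strand) and chr1:24616138-24616197 (minus strand), with every differing base in capitals. To the right of these differences, the last of which is A1066T of *mt-Co1*, the sequences shown are the same.
mt-Co1: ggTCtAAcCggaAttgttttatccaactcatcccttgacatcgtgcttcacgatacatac
Gm29216: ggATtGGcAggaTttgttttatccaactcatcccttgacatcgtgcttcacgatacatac

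Taken over all 37 genes, mitochondrial transcripts made up 9.61% of counted fragments in the library labelled BKO (9.60 to 9.62, Wilson) and 18.1% in the flox/flox library (18.06 to 18.10). These shares rest on 1942683 of 20219345 fragments in the library labelled BKO and 3422655 of 18929137 in the flox/flox library. By class, mRNAs took 9.37% and 17.6% of fragments in these libraries, rRNAs 0.201% and 0.425%, and tRNAs 0.0352% and 0.0733%. Each class thus held about the same part of a smaller mitochondrial pool. In bulk tissue, fewer cells of a type and less RNA per cell cannot be told apart.

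Of the 37 genes, 33 averaged 1 FPKM or more over both libraries and were compared. FPKM are fragments scaled to exon length and library size, which puts genes of different length on a common scale. For genes shorter than a fragment, such as the tRNAs, levels on this scale are uncertain. The other 4 were the tRNAs *mt-Tf*, *mt-Ts1*, *mt-Td* and *mt-Tt*. Ratios set the library labelled BKO over flox/flox, on the log2 scale and with 0.1 FPKM added to each value. Their median was -1.42 for the 33 genes and 0.02 for all 12205 genes compared. At least 2-fold lower were 22 of the 33 genes, beside 5.91% of all compared genes, and at least 2-fold higher were 2, beside 11%. A ratio below 1 was found for 30 of the 33, beside 48.3% of all compared genes.

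**Figure D1:**
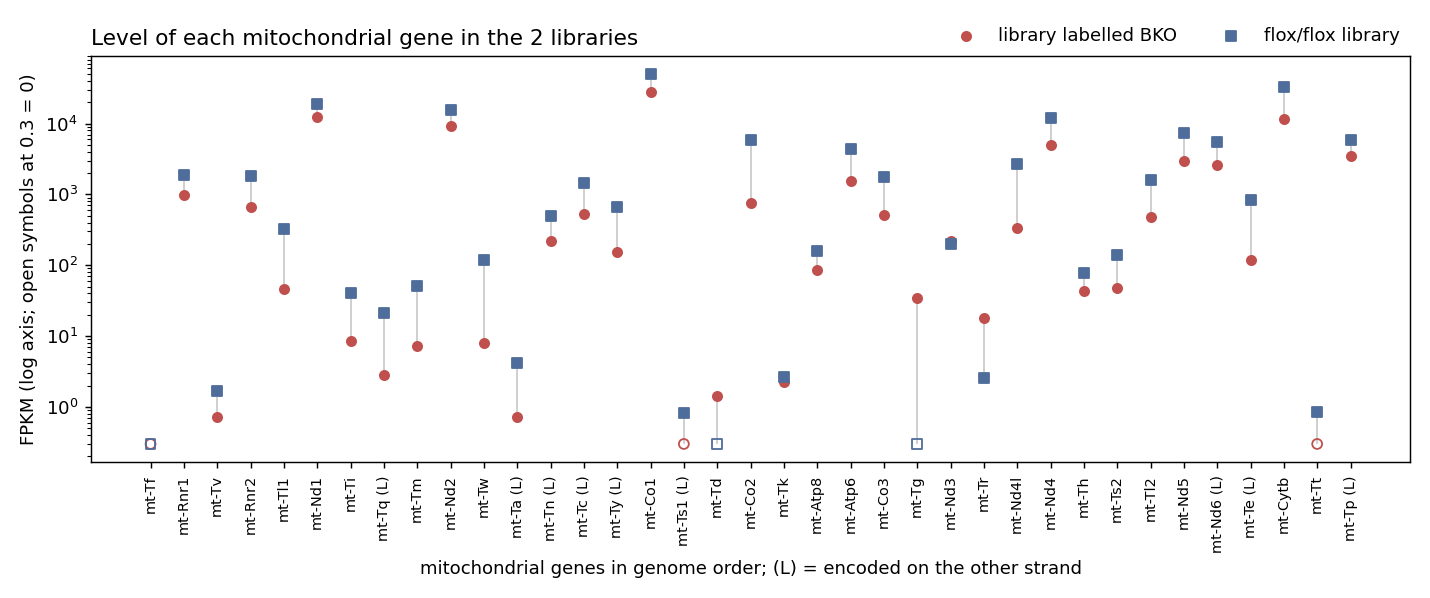
FPKM (log axis) of the 37 mitochondrial genes in genome order, with circles for the library labelled BKO, squares for the flox/flox library and open symbols for a value of 0; (L) marks genes encoded on the other strand. The circle lies below the square for most genes, and *mt-Td*, *mt-Tg*, *mt-Nd3* and *mt-Tr*, all within the copied stretch, are the genes where it lies above.

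The 13 mRNAs spanned 85.7 to 28013 FPKM in the library labelled BKO and 159 to 49635 FPKM in the flox/flox library. Their FPKM summed to 75041 in the library labelled BKO and 156785 in the flox/flox library, 2.09-fold lower in the library labelled BKO. The median log2 ratio was -1.23, 12 of the 13 were lower, 8 of them at least 2-fold, and none was 2-fold higher. Beside these counts, 48.3% of all compared genes were lower, 5.91% at least 2-fold lower and 11% at least 2-fold higher. The single ratio above 1 was that of *mt-Nd3*. In both libraries *mt-Co1* was the most abundant transcript of all genes listed, and 7 of the 13 stood among the first 11 genes in the library labelled BKO and 9 in the flox/flox library.

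Complex I, NADH dehydrogenase, takes electrons from NADH into the respiratory chain and has 7 subunits of mitochondrial origin, all of them in its membrane arm. *mt-Nd1* (chrM:2751-3707) had 12316 FPKM in the library labelled BKO and 19099 FPKM in the flox/flox library, 1.55-fold lower (1.54 to 1.56). *mt-Nd2* (chrM:3914-4951) had 9186 FPKM in the library labelled BKO and 15687 FPKM in the flox/flox library, 1.71-fold lower (1.70 to 1.72). These were the smallest decreases among the mRNAs of the genome. *mt-Nd4* (chrM:10167-11544) had 5031 FPKM in the library labelled BKO against 11803 FPKM in the flox/flox library, 2.35-fold lower (2.33 to 2.36). *mt-Nd5* (chrM:11742-13565) had 2999 and 7301 FPKM in these libraries, 2.43-fold lower in the library labelled BKO (2.42 to 2.45). Both encode large antiporter-like subunits of the membrane arm.

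The remaining 3 mRNAs of complex I went in different ways. *mt-Nd6* (chrM:13552-14070), the only mRNA encoded on the other strand, had 2587 FPKM in the library labelled BKO and 5430 FPKM in the flox/flox library, 2.10-fold lower (2.07 to 2.13). *mt-Nd4l* (chrM:9877-10173) had 333 FPKM in the library labelled BKO against 2676 FPKM in the flox/flox library, 8.04-fold lower (7.67 to 8.43), and this was the lowest ratio of any mitochondrial mRNA. *mt-Nd3* (chrM:9459-9806) had 218 FPKM from 1537 fragments in the library labelled BKO and 201 FPKM from 1225 fragments in the flox/flox library, 1.08-fold higher (1.00 to 1.17). Both of these short genes have near-identical copies on chromosome 1, and their values are uncertain for that reason.

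Complex III passes electrons from ubiquinol to cytochrome c and has a single subunit of mitochondrial origin. Its mRNA, *mt-Cytb* (chrM:14145-15288), had 11458 FPKM in the library labelled BKO and 32717 FPKM in the flox/flox library, 2.86-fold lower (2.84 to 2.87). No annotated copy of it had any fragment in either library, and it was the third most abundant gene of all in the library labelled BKO and the second in the flox/flox library. Among the mRNAs with no near-identical copy this was the lowest ratio.

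Complex IV, cytochrome c oxidase, reduces oxygen, and its 3 mitochondrial subunits form the catalytic core. *mt-Co1* (chrM:5328-6872), which encodes the subunit that binds oxygen, had 28013 FPKM in the library labelled BKO and 49635 FPKM in the flox/flox library, 1.77-fold lower (1.77 to 1.78). *mt-Co2* (chrM:7013-7696), whose product accepts electrons from cytochrome c, had 756 FPKM in the library labelled BKO and 5861 FPKM in the flox/flox library, 7.75-fold lower (7.60 to 7.91). *mt-Co3* (chrM:8607-9390) had 505 FPKM in the library labelled BKO and 1783 FPKM in the flox/flox library, 3.53-fold lower (3.44 to 3.62). The mRNAs of a single enzyme core thus differed in their ratios by far more than counting error, and those with the lowest ratios, *mt-Co2* and *mt-Co3*, lie wholly in the copied stretch.

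Complex V, ATP synthase, makes ATP from the proton gradient, and both of its mitochondrial subunits belong to the membrane part. *mt-Atp6* (chrM:7927-8607) had 1553 FPKM in the library labelled BKO and 4432 FPKM in the flox/flox library, 2.85-fold lower (2.81 to 2.90). *mt-Atp8* (chrM:7766-7969) had 85.7 FPKM from 354 fragments in the library labelled BKO against 159 FPKM from 566 fragments in the flox/flox library, 1.85-fold lower (1.62 to 2.12). It was the lowest mRNA in both libraries. The genes overlap by 43 bases, which is 21.1% of *mt-Atp8*, and HTSeq by default discards a read that falls on more than 1 gene. The overlap in chrM:7915-7981 (plus strand) is shown in capitals, because reads over it belong to both genes and the value of *mt-Atp8* can be too low in both libraries.
mt-Atp8 into mt-Atp6: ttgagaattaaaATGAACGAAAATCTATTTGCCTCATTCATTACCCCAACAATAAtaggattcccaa

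*mt-Nd4l* and *mt-Nd4* likewise overlap, by 7 bases, and *mt-Nd5* and *mt-Nd6* overlap by 14 bases on opposite strands. Whether strand was used in counting is not given in the sources used here. The overlap in chrM:10155-10185 (plus strand) is again in capitals.
mt-Nd4l into mt-Nd4: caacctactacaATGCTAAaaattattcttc

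Several mRNAs with quite different ratios end in the annotation before their stop codon is complete, a known trait of mitochondrial genes in which the poly(A) tail added after cutting supplies the missing bases. The last 20 bases of each are shown, with the base that remains of the stop codon in capitals (chrM:9371-9390, chrM:11525-11544 and chrM:15269-15288, plus strand).
mt-Co3 end: catttattgatgaggatctT
mt-Nd4 end: aattacaggcctgacaataT
mt-Cytb end: aatactaaaattatatccaT

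**Figure D2:**
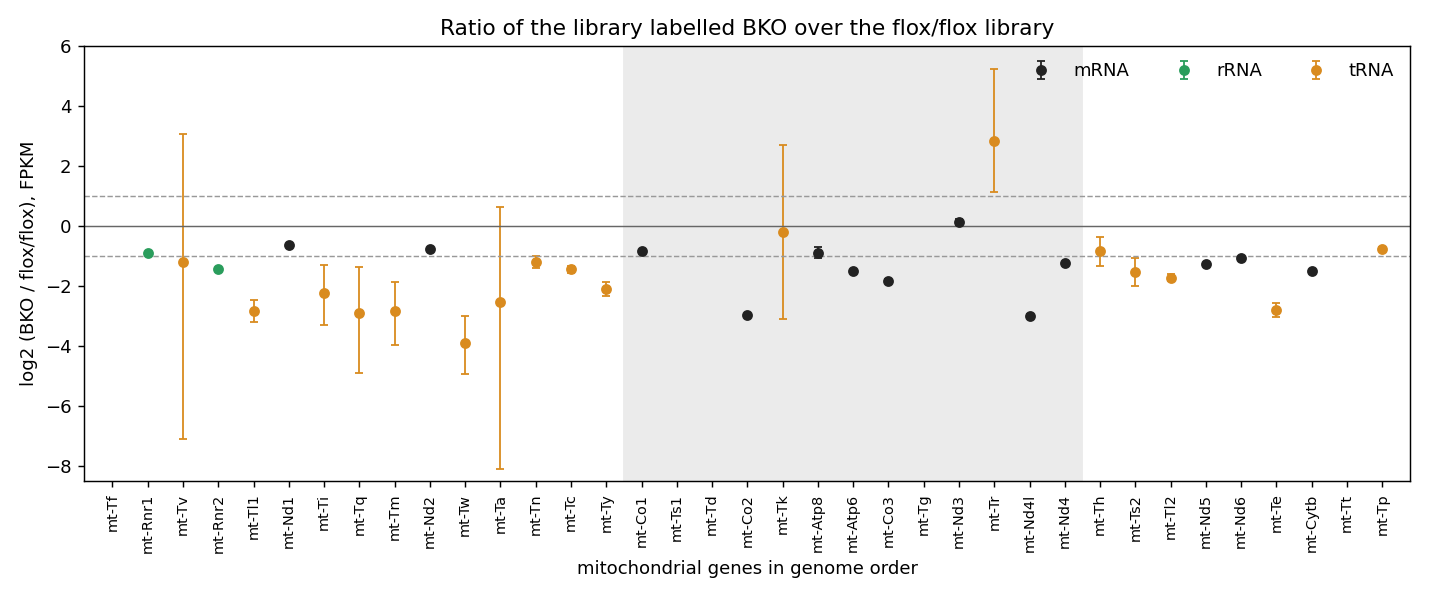
log2 of the FPKM ratio (BKO over flox/flox) for each mitochondrial gene in genome order, with 95% intervals for counting error, dashed lines at 2-fold and genes in or partly in the copied stretch on grey; genes at 0 in a library have no point. Outside the grey every point is below 0, and inside it the mRNAs run from -3.01 for *mt-Nd4l* to 0.12 for *mt-Nd3*.

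Position along the genome ordered the ratios of the heavy-strand mRNAs, those encoded on the plus strand of the annotation, that are not wholly inside the copied stretch. In the order of the genome, the log2 ratios were -0.63 for *mt-Nd1*, -0.77 for *mt-Nd2*, -0.83 for *mt-Co1*, -1.23 for *mt-Nd4*, -1.28 for *mt-Nd5* and -1.51 for *mt-Cytb*. Each gene after the first thus had a lower ratio than the one before it, and the counting intervals of neighbours did not overlap. Pearson's r between start position and log2 ratio was -0.997 and Spearman's rho -1 over these 6 genes, a subset chosen after the values were seen. The points are genes of the same 2 libraries, cut from shared precursors, and are not independent. *mt-Nd6*, encoded on the other strand between *mt-Nd5* and *mt-Cytb*, had a log2 ratio of -1.07 and stood outside this order. Over all 12 heavy-strand mRNAs the values were -0.24 and -0.43, and the rRNAs at the start of the genome did not follow the order. Nor did the compared heavy-strand tRNAs outside the copied stretch. Before it, their log2 ratios were -1.11 for *mt-Tv*, -2.83 for *mt-Tl1*, -2.23 for *mt-Ti*, -2.83 for *mt-Tm* and -3.88 for *mt-Tw*. After it, they were -0.84 for *mt-Th*, -1.53 for *mt-Ts2* and -1.72 for *mt-Tl2*. How RNA quality or coverage along the precursor differed between the libraries was not analysed here.

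The 2 rRNAs lie at the start of the same transcripts and make up the RNA of the mitochondrial ribosome. *mt-Rnr1* (chrM:70-1024), the 12S rRNA of its small subunit, had 995 FPKM in the library labelled BKO and 1848 FPKM in the flox/flox library, 1.86-fold lower (1.82 to 1.89). *mt-Rnr2* (chrM:1094-2675), the 16S rRNA of its large subunit, had 670 FPKM in the library labelled BKO and 1796 FPKM in the flox/flox library, 2.68-fold lower (2.64 to 2.73). The rRNAs were close to equal in FPKM in the flox/flox library and apart in the library labelled BKO. Both were below most mRNAs in FPKM, and the sources used here do not say whether the libraries were made from poly(A) RNA or from RNA depleted of rRNA.

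The 22 tRNAs summed to 7110 fragments in the library labelled BKO and 13878 in the flox/flox library. These genes are shorter than the usual fragments of such libraries, and mature tRNAs and longer RNAs that contain them cannot be told apart in these counts. A fragment longer than the gene can also fall on a neighbouring gene, and HTSeq by default discards such reads. The FPKM of a tRNA can thus be too low, and its rank among genes is uncertain. The part of reads lost in this way may differ between the libraries. The tRNA ratios are uncertain for that reason too, and their intervals do not cover it. Of the 18 tRNAs that were compared, 16 were lower in the library labelled BKO, 13 of them at least 2-fold. At least 2-fold higher were 2, and the median log2 ratio was -1.62. The shares over all compared genes were 48.3% lower, 5.91% at least 2-fold lower and 11% at least 2-fold higher.

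The tRNA of proline, *mt-Tp*, had by far the most fragments and the highest FPKM of the tRNAs. It lies next to the control region, on the other strand than most genes (chrM:15356-15422, minus strand), and had 3478 FPKM from 4717 fragments in the library labelled BKO and 5875 FPKM from 6881 fragments in the flox/flox library, 1.69-fold lower (1.63 to 1.75). It held 66.3% of tRNA fragments in the library labelled BKO (65.2 to 67.4) and 49.6% in the flox/flox library (48.8 to 50.4), and ranked seventh of all genes in both. Its gene is shown whole because no other tRNA came near its level.
mt-Tp: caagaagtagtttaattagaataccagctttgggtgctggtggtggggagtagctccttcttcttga

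Next in level were the tRNAs of leucine, cysteine, glutamate, tyrosine and asparagine. *mt-Tl2* had 484 FPKM in the library labelled BKO and 1597 FPKM in the flox/flox library, 3.30-fold lower (3.02 to 3.60). *mt-Tc* had 527 FPKM in the library labelled BKO and 1437 FPKM in the flox/flox library, 2.73-fold lower (2.50 to 2.98). *mt-Te* had 119 FPKM in the library labelled BKO and 829 FPKM in the flox/flox library, 6.98-fold lower (5.91 to 8.27). Among these *mt-Te* had the lowest ratio, and the neighbouring *mt-Nd6*, encoded on the same strand, differed much less. *mt-Ty* had 156 FPKM in the library labelled BKO and 668 FPKM in the flox/flox library, 4.29-fold lower (3.68 to 5.02). *mt-Tn* had 219 FPKM in the library labelled BKO and 500 FPKM in the flox/flox library, 2.28-fold lower (1.99 to 2.62). *mt-Tn*, *mt-Tc* and *mt-Ty* sit in 1 cluster of adjacent tRNA genes.

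The tRNAs around *mt-Nd1* and *mt-Nd2* had fewer fragments and lower ratios than these mRNAs. *mt-Tl1*, between *mt-Rnr2* and *mt-Nd1*, had 46.1 FPKM in the library labelled BKO and 328 FPKM in the flox/flox library, 7.11-fold lower (5.51 to 9.29). *mt-Tw* had 8.11 FPKM from 11 fragments in the library labelled BKO and 120 FPKM from 141 fragments in the flox/flox library, 14.8-fold lower (8.05 to 30.4). The last was the lowest ratio of all 33 compared genes. *mt-Tm* had 7.16 FPKM in the library labelled BKO and 51.4 FPKM in the flox/flox library, 7.18-fold lower (3.65 to 15.7). *mt-Ti* had 8.59 and 40.6 FPKM in these libraries, 4.73-fold lower in the library labelled BKO (2.48 to 9.77). *mt-Tq*, which overlaps *mt-Ti* by 3 bases on the opposite strand, had 2.78 FPKM from 4 fragments in the library labelled BKO and 20.9 FPKM from 26 fragments in the flox/flox library, 7.53-fold lower (2.61 to 29.7). *mt-Ta* had 1 fragment in the library labelled BKO and 5 in the flox/flox library, so that its ratio could not be told from 1 at this depth.

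Past the copied stretch, the tRNAs of serine and histidine were lower as well. *mt-Ts2* had 47.7 FPKM in the library labelled BKO and 138 FPKM in the flox/flox library, 2.88-fold lower (2.11 to 3.99). *mt-Th* had 42.8 FPKM in the library labelled BKO and 76.8 FPKM in the flox/flox library, 1.80-fold lower (1.28 to 2.54). *mt-Tv*, between the rRNAs, had 1 fragment in the library labelled BKO and 2 in the flox/flox library. *mt-Tf* had none in either library, and *mt-Tt* had none in the library labelled BKO and 1 in the flox/flox library.

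The only tRNAs with more fragments in the library labelled BKO were inside the copied stretch. The 5 tRNAs there (*mt-Ts1*, *mt-Td*, *mt-Tk*, *mt-Tg* and *mt-Tr*) summed to 77 fragments in the library labelled BKO and 7 in the flox/flox library. *mt-Tg*, the tRNA of glycine, had 34.1 FPKM from 47 fragments in the library labelled BKO and 0 in the flox/flox library, at least 13.5-fold higher when 3 fragments are set as the limit that a count of 0 allows. *mt-Tr*, the tRNA of arginine, had 18.2 FPKM from 25 fragments in the library labelled BKO and 2.52 FPKM from 3 fragments in the flox/flox library, 7.20-fold higher (2.20 to 37.2). These tRNA genes border *mt-Nd3* on either side, and no other mitochondrial gene that was compared was 2-fold higher. *mt-Tk* had 3 fragments in each library, *mt-Td* had 2 in the library labelled BKO and 0 in the flox/flox library, and *mt-Ts1* had 0 in the library labelled BKO and 1 in the flox/flox library. Both are shown whole (chrM:9391-9458 and chrM:9808-9875, plus strand), because *mt-Tg* ends directly before the first base of *mt-Nd3* and *mt-Tr* lies in the gap that is 1 base longer on chromosome 1.
mt-Tg: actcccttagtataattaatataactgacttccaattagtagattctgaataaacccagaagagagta
mt-Tr: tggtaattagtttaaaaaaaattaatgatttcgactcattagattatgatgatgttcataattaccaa

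The nuclear copies themselves had many fragments, and in both libraries the fragments followed no single split between gene and copy. The 7 near-identical copies took 0.0791% of all fragments in the library labelled BKO and 0.238% in the flox/flox library, all 7 being lower in the library labelled BKO. Gm28438, the copy of *mt-Nd3*, had 34.1 FPKM from 238 fragments in the library labelled BKO and 684 FPKM from 4124 fragments in the flox/flox library, 20.1-fold lower (17.6 to 23.0). The pair was thus counted mostly as *mt-Nd3* in the library labelled BKO, with 86.6% of its fragments (84.9 to 88.1), and mostly as the copy in the flox/flox library, where *mt-Nd3* had 22.9% (21.8 to 24.0). No other pair changed sides in this way.

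Adding the fragments of the copy to those of the gene moved *mt-Nd3* to the other side of 1. Gene and copy together had 1775 fragments in the library labelled BKO and 5349 in the flox/flox library, 3.49-fold lower (3.31 to 3.68), against the 1.08-fold increase of *mt-Nd3* alone. *mt-Co2* and Gm28661 together were 6.55-fold lower (6.43 to 6.67), and *mt-Nd4l* and Gm10222 together 7.59-fold lower (7.28 to 7.91). These genes kept the lowest ratios among the mRNAs with the copies added. *mt-Atp6* with Gm10925 was 3.01-fold lower, *mt-Co3* with Gm28437 3.35-fold lower, *mt-Nd4* with Gm28439 2.36-fold lower and *mt-Co1* with Gm29216 1.77-fold lower. With the copies added all 13 mRNAs were lower in the library labelled BKO. Reads left out of both counts, if any, are missing from these sums, which need not give the full level of a gene.

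**Figure D3:**
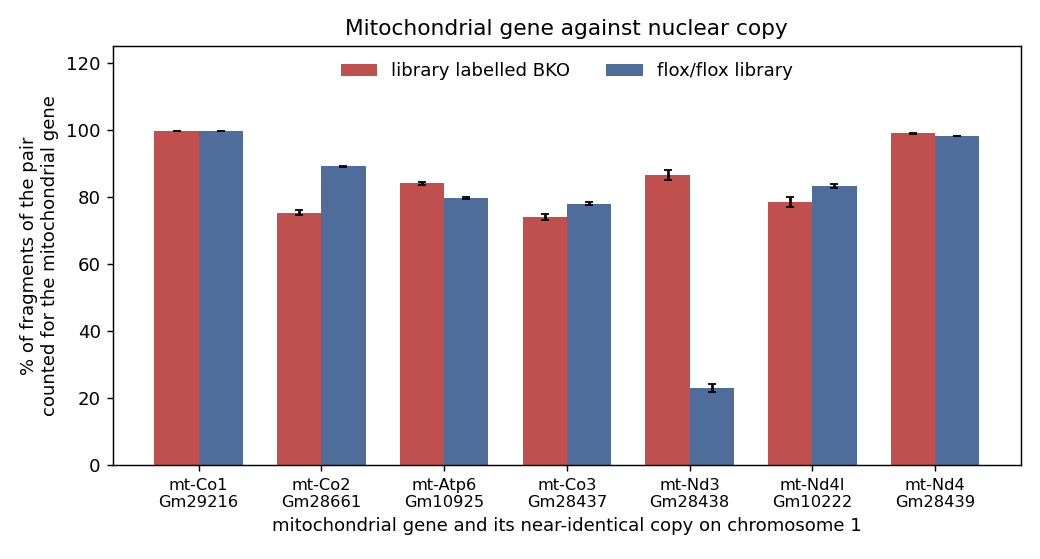
Share of the fragments of each pair, mitochondrial gene plus near-identical copy on chromosome 1, that was counted for the mitochondrial gene (%), with 95% Wilson intervals, in the library labelled BKO (left bar) and the flox/flox library (right bar). The gene holds at least 74.0% in each pair and library except *mt-Nd3* in the flox/flox library, at 22.9%.

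The single copies ran at different levels although they lie side by side. Gm10925 had 297 FPKM in the library labelled BKO against 1136 FPKM in the flox/flox library, and Gm28661 had 250 and 722 FPKM in these libraries. Gm29216 had 336 FPKM in the library labelled BKO and 457 FPKM in the flox/flox library, Gm28437 had 178 and 506 FPKM, Gm10222 had 92.1 and 546 FPKM, and Gm28439 had 85.5 and 346 FPKM. A read that fits both places has no single origin, and how reads with several places were treated is not given in the sources used here. Such reads may have been counted for either place or left out of both counts. Of 100-base windows, 97.6% or more had an exact nuclear match in *mt-Co2*, *mt-Atp6*, *mt-Co3*, *mt-Nd3* and *mt-Nd4l*, 60.8% in *mt-Nd4* and 30.8% in *mt-Co1*. In *mt-Nd2* this share was 3.19%, and in the other 5 mRNAs it was 0. *mt-Atp8* and the 5 tRNAs of the stretch lie where chromosome 1 has no annotated pseudogene, so their matches there were not searched. The values of the genes with high shares are uncertain, and whether the copies are expressed at all cannot be read from these counts.

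Less similar copies elsewhere had far fewer fragments. On chromosome 2, Gm13340 (for *mt-Co1*, 97.6% identity) had 21.9 FPKM in the library labelled BKO and 64.5 FPKM in the flox/flox library, Gm13339 (*mt-Nd2*, 96.7%) had 3.87 and 32.9 FPKM, and Gm13341 (*mt-Co2*, 95.9%) had 2.35 and 5.45 FPKM. Gm43743 (*mt-Atp6*) had 1 fragment and Gm4076 (*mt-Nd5*) 3 fragments in each library. The other 4 of the 16 copies found were at 0 in both.

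Outside the copied stretch the mRNAs were lower as well, with a smaller median decrease than inside it. Inside it, most values depend on how reads were split between gene and copy, so this contrast is uncertain. The 5 mRNAs wholly outside the copied stretch (*mt-Nd1*, *mt-Nd2*, *mt-Nd5*, *mt-Nd6* and *mt-Cytb*) had a median log2 ratio of -1.07, with 3 of them at least 2-fold lower, and the 6 wholly inside it had a median of -1.67. For the 15 tRNAs outside it that were compared, the median was -2.10 and all were lower, 13 of them at least 2-fold. Beside these counts, 48.3% of all compared genes were lower and 5.91% at least 2-fold lower.

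By strand, 28 of the 37 genes are encoded on the plus strand of the annotation and read as the heavy-strand transcript, and 9 on the minus strand, read as the light-strand transcript. The 9 are *mt-Nd6* and 8 tRNAs. Whether strand was used in counting is not given in the sources used here. Fragments counted for a gene may thus stem from the transcript of the opposite strand. The 8 light-strand genes that were compared had a median log2 ratio of -1.77 and were all lower, 7 of them at least 2-fold. The 25 compared heavy-strand genes had a median of -1.28, with 22 lower, 15 of these at least 2-fold. Among all compared genes, 48.3% were lower and 5.91% at least 2-fold lower. The difference between these medians, -0.49, shrank to -0.02 when only genes averaging 5 FPKM or more were compared, so the strands could not be told apart by their medians. *mt-Nd6* stood out in composition, with 28.1% G and 5.97% C, where the other mRNAs had 5.88% to 16.1% G, but its ratio lay amid theirs.

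The make-up of the mRNA pool differed between the libraries along with its size. *mt-Co1* held 46.2% of the fragments of the 13 mRNAs in the library labelled BKO (46.16 to 46.30) and 40.3% in the flox/flox library (40.22 to 40.33). *mt-Nd1* held 12.6% in the library labelled BKO and 9.60% in the flox/flox library, and *mt-Nd2* 10.2% and 8.55%. The first mRNAs of the genome thus took larger parts in the library labelled BKO. So did 2 short mRNAs of the copied stretch, *mt-Nd3* with 0.081% against 0.037% in the flox/flox library and *mt-Atp8* with 0.0187% against 0.0170%. *mt-Cytb* held 14.0% in the library labelled BKO and 19.7% in the flox/flox library, *mt-Nd4* 7.41% and 8.54%, and *mt-Nd5* 5.84% and 6.99%. *mt-Co2* held 0.55% in the library labelled BKO and 2.11% in the flox/flox library. *mt-Nd6* was nearly level at 1.43% in the library labelled BKO and 1.48% in the flox/flox library.

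**Figure D4:**
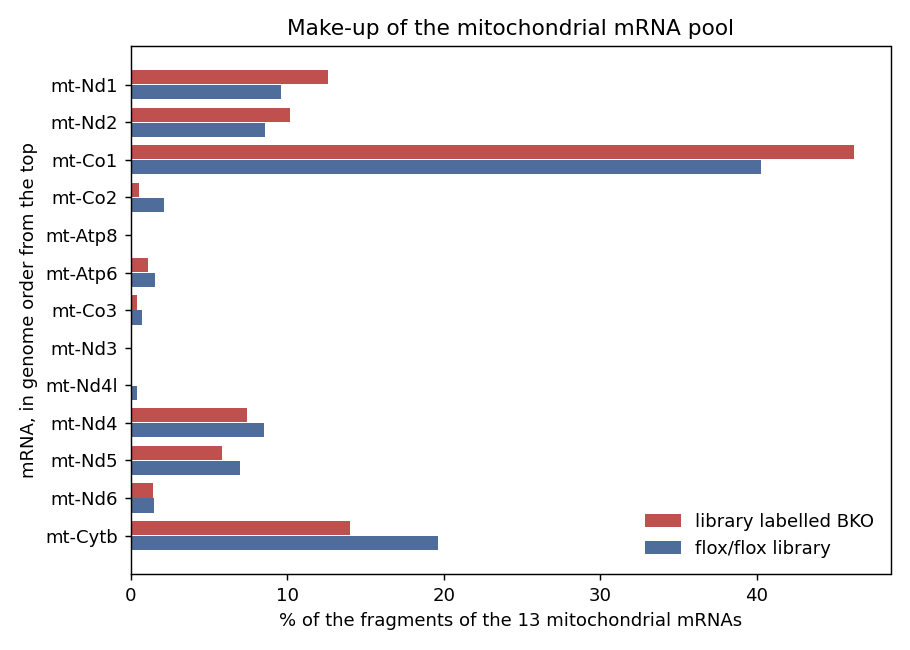
Share of each mRNA in the fragments of all 13 mitochondrial mRNAs (%), in genome order from the top, in the library labelled BKO (upper bar) and the flox/flox library (lower bar). *mt-Nd1*, *mt-Nd2* and *mt-Co1* have the longer bar in the library labelled BKO, *mt-Nd4*, *mt-Nd5* and *mt-Cytb* in the flox/flox library. The very short bars of *mt-Nd3* and *mt-Atp8* are also longer in the library labelled BKO.

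Nuclear genes of the same complexes were lower too, but by less. Taken were 75 nuclear genes of complexes I, III, IV and V, with an inhibitor of ATP synthase counted in complex V. Of these 75, 70 were lower in the library labelled BKO and 5 were higher, the median log2 ratio being -0.56. Only 1 was at least 2-fold lower. Of all compared genes, 48.3% were lower and 5.91% at least 2-fold lower. Their FPKM summed to 23844 in the library labelled BKO and 35298 in the flox/flox library, 1.48-fold lower. The most abundant of them, *Cox6a1* of complex IV, had 2626 FPKM in the library labelled BKO and 3808 FPKM in the flox/flox library. The gene past 2-fold was *Ndufv1*, which holds the flavin that accepts electrons from NADH in complex I, with 192 FPKM in the library labelled BKO and 386 FPKM in the flox/flox library. By complex, the medians for mitochondrial and for nuclear genes were -1.07 and -0.58 in complex I, -1.51 and -0.62 in complex III, -1.82 and -0.60 in complex IV, and -1.20 and -0.53 in complex V. The mitochondrial median was thus the lower one in each complex, over 1 to 7 mitochondrial genes, and 7 of the 13 in all have a near-identical nuclear copy.

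At least 2-fold higher were 2 of the 75 nuclear genes, *Cox6a2* and *Atp5g1*, beside 11% of all compared genes. *Cox6a2*, the muscle form of a complex IV subunit, had 66.3 FPKM in the library labelled BKO and 1.43 FPKM in the flox/flox library. *Atp5g1*, a gene for the c subunit of ATP synthase, had 7.30 FPKM in the library labelled BKO and 0.512 FPKM in the flox/flox library, which is uncertain because other genes encode the same mature protein and it has processed copies.

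**Figure D5:**
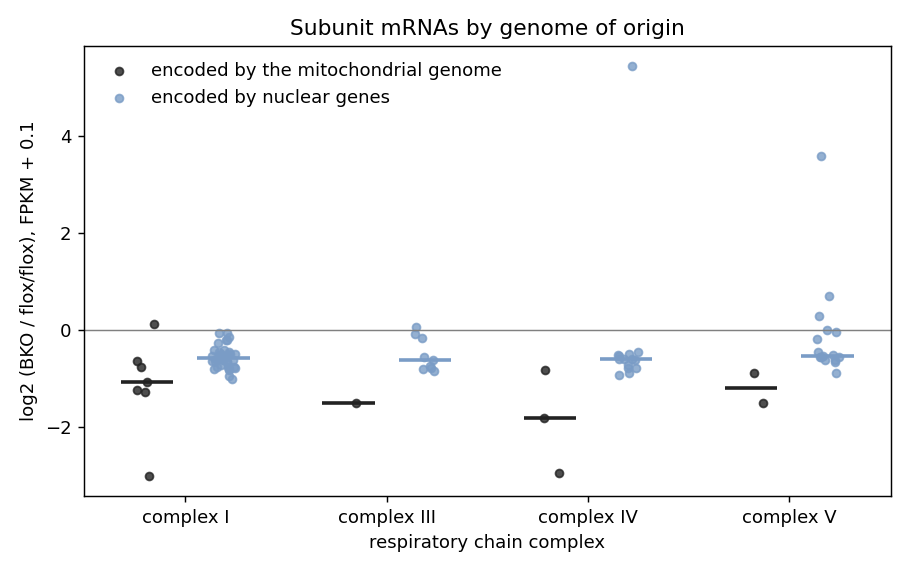
log2 ratio (BKO over flox/flox, 0.1 FPKM added) of each subunit mRNA of complexes I, III, IV and V, mitochondrial genes at left and nuclear genes at right of each complex, with a bar at the median. The nuclear genes of complex V include an inhibitor of ATP synthase. The mitochondrial bar is the lower one in each complex, and the 2 nuclear points far above 0 are *Cox6a2* and *Atp5g1*.

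The nuclear genes that transcribe, cut, stabilise, modify and replicate the mitochondrial genome had a median ratio nearer to that of all compared genes than to that of the mitochondrial mRNAs. Of 84 compared genes, 53 were lower and 31 higher, where 48.3% of all compared genes were lower. The median log2 ratio was -0.13, beside 0.02 for all compared genes. When values were rescaled to TPM, these medians became 0.20 and 0.35. *Polrmt*, the RNA polymerase of mitochondria, had 10.8 FPKM in the library labelled BKO and 12.4 FPKM in the flox/flox library, a log2 ratio of -0.20. Its cofactors *Tfam*, which also packs the DNA, and *Tfb2m*, which opens the promoter, had log2 ratios of -0.46 and -0.15, and *Tefm*, the elongation factor, 0.48. The most abundant gene of the list was *Hsd17b10*, a subunit of the RNase P that cuts tRNAs at the 5′ end, with 120 FPKM in the library labelled BKO and 133 FPKM in the flox/flox library.

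After adding 0.1 FPKM, 3 of these 84 genes passed 2-fold, 1 lower and 2 higher. Of all compared genes, 5.91% were at least 2-fold lower and 11% at least 2-fold higher, so these are few. *Cars2*, which charges the mitochondrial tRNA of cysteine, had 2.23 FPKM in the library labelled BKO and 5.99 FPKM in the flox/flox library, 2.69-fold lower (2.36 to 3.07). *Pde12*, which removes poly(A) from mitochondrial RNA, had 4.25 FPKM in the library labelled BKO and 1.92 FPKM in the flox/flox library, 2.21-fold higher (1.92 to 2.57). *Ddx28*, an RNA helicase of the large mitochondrial ribosomal subunit, had 19.7 FPKM in the library labelled BKO and 5.92 FPKM in the flox/flox library, 3.33-fold higher (2.88 to 3.86). *Trmt5*, a methyltransferase of tRNAs, reached 2-fold only as a plain ratio, from 303 fragments in the library labelled BKO and 130 in the flox/flox library, 2.01-fold higher in FPKM (1.63 to 2.49). By role, the median log2 ratio was -0.20 for transcription (5 of 7 genes lower), 0.10 for processing (3 of 8) and -0.24 for stability and polyadenylation (5 of 8). It was 0.15 for degradation (1 of 5), 0.02 for rRNA modification and assembly (5 of 10) and -0.03 for tRNA modification (8 of 16). For tRNA synthetases, with a few amidotransferase subunits listed among them, it was -0.26 (17 of 20), and for replication -0.24 (9 of 10). Of all compared genes, 48.3% were lower. None of the medians by role came near that of the mitochondrial mRNAs.

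Several facts about the 2 libraries stand beside all of these values. *Mettl3* had 2.38 FPKM from 253 fragments in the library labelled BKO and 1.80 FPKM from 165 fragments in the flox/flox library, 1.32-fold higher (1.08 to 1.62), so the targeted gene went against the label. Values per gene do not show the floxed exons apart. For the marker counts that follow, 48.3% of all compared genes were lower, 5.91% at least 2-fold lower and 11% at least 2-fold higher. The 12 markers of brown adipocytes were all present and summed to 7349 FPKM in the library labelled BKO and 11584 FPKM in the flox/flox library, with a median log2 ratio of -0.72, 9 being lower and 3 higher. At least 2-fold lower were *Ucp1*, at 537 and 3164 FPKM, *Prdm16*, at 2.13 and 5.98 FPKM, and *Ppargc1a*, at 5.27 and 12.9 FPKM. The iCre insertion lies in *Ucp1* itself and only BKO mice carry it, and its part in the *Ucp1* value was not tested. *Cox8b*, the most abundant by mean, had 1659 FPKM in the library labelled BKO and 3051 FPKM in flox/flox. Of the 3 that were higher, *Adipoq* had 1150 FPKM in the library labelled BKO and 665 FPKM in flox/flox, 1.73-fold higher (1.70 to 1.76). *Fabp4* had 1829 and 1633 FPKM, and *Plin1* 393 and 368 FPKM. These 3 are markers of adipocytes in general, but so is *Pparg*, which was lower. It had 74.3 FPKM in the library labelled BKO and 105 FPKM in flox/flox, 1.41-fold lower (1.36 to 1.47). Of 15 skeletal muscle markers, *Tnnc2* was at 0 in both libraries and the other 14 were at least 2-fold higher, summing to 3907 FPKM in the library labelled BKO and 62.2 FPKM in the flox/flox library. *Acta1*, the most abundant, had 1389 FPKM in the library labelled BKO against 16.5 FPKM in flox/flox. All 12 macrophage markers were at least 2-fold higher, summing to 575 FPKM in the library labelled BKO against 112 FPKM in flox/flox, with *Lyz2*, the most abundant, at 237 and 41.0 FPKM. The 8 endothelial markers summed to 98.1 FPKM in the library labelled BKO and 230 FPKM in the flox/flox library, with 7 lower, 5 of them at least 2-fold, and *Cdh5*, the most abundant, at 26.1 and 71.9 FPKM. *Vwf* went the other way, with 2.39 FPKM in the library labelled BKO and 1.72 FPKM in flox/flox, 1.39-fold higher (1.24 to 1.56). The part of these shifts in the mitochondrial values was not tested.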

How the data were processed

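Interscapular brown fat was sequenced in 2 libraries, 1 per genotype and each pooled from 4 mice, grouped by the genotype and title in the labels. The values deposited by the authors are FPKM, 1 per gene in each library, which rest on alignment of read pairs to GRCm38 (Ensembl release 90) with TopHat 2.0.12 and counting by HTSeq 0.6.1. The treatment of strand and of reads with several places is not given in the sources used here.

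FPKM multiplied by exon length fell on whole multiples of a constant per library, which gave the fragments behind each value (within 0.001 fragments plus a relative 1e-08). This held for all 37 mitochondrial genes and for 93.5% of the 12205 genes that averaged 1 FPKM or more, the only ones compared. Totals were 20219345 fragments in the library labelled BKO and 18929137 in the flox/flox library, whereas the deposited FPKM were scaled to 20240633 and 17480546. The deposited scaling was kept. Since the values are FPKM with 1 library per group, no count model and no test were run. Expression above 0 was listed for 22868 genes in the library labelled BKO and 22194 in the flox/flox library.

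log2 ratios were taken after adding 0.1 FPKM, which understates changes of low genes, and folds in the text are plain ratios. Intervals are exact (Clopper-Pearson) for ratios of fragments and Wilson for shares, at 95%, and reflect counting error alone, because reads carry no molecular identifiers and several can stem from 1 molecule. A count of 0 was set at 3 fragments. Nuclear copies were sought with blastn 2.17.0 among the nuclear transcripts of GENCODE M21 (GRCm38), from 90% identity over 100 bases, with near-identical meaning 99.5% or more. Copies outside annotated transcripts were not searched. Positions, names and sequences come from GENCODE M21, which held 52403 of the 52768 gene identifiers.

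The mitochondrial genes and all gene lists were chosen with earlier results of these data known. Named genes were all mitochondrial genes, their nuclear copies above 0, *Mettl3* and, of other lists, members past 2-fold, the most abundant one and the mitochondrial polymerase with its cofactors. Muscle, macrophage and endothelial markers past 2-fold are given by count, and *Trmt5*, *Adipoq*, *Fabp4*, *Plin1*, *Pparg* and *Vwf* were added after their values were seen. The alternatives tried were a pseudocount of 1 or 0.01 FPKM, a filter of 5 FPKM or none, TPM, median centring, own totals, totals without mitochondrial genes, a trimmed mean of log ratios, added copies and window lengths of 50 and 150 bases. Python 3.11.15 with numpy 2.4.6, pandas 2.3.3, scipy 1.17.1 and matplotlib 3.10.9 was used, and the calculation was tested on simulated data.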

Additional observations from a re-analysis of the deposited data

How the results depend on the processing

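With 1 pooled library per group, depth is not the main limit for the mRNAs and rRNAs, whose counting intervals are narrow, whereas tRNAs with few fragments are limited by it. Rescaling to TPM moved the median log2 ratio of all compared genes by 0.33 and own fragment totals by 0.11, and the other scalings by less than 0.03. No paired analysis was possible because the labels carry no replicate numbers and each group has 1 library. Copies outside annotated transcripts, named among the alternatives, were not searched.

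The median log2 ratio of the 13 mRNAs, -1.23, was -0.89 under TPM, -1.25 with median centring, -1.11 with own totals, -1.26 with totals without mitochondrial genes, -1.25 with a trimmed mean, -1.28 with copies added and -0.89 over the mRNAs for which no annotated copy matched most windows. The last value is that of *mt-Atp8*, whose place on chromosome 1 was not searched, and without it, an alternative chosen after seeing the data, the median was -0.95. For the 2 rRNAs, -1.16 became -0.82 under TPM, -1.04 with own totals and -1.18 without mitochondrial genes in the totals. The 8 mRNAs at least 2-fold lower became 5 under TPM and 3 among the mRNAs with no matched copy over most windows, with or without *mt-Atp8*. The difference between light-strand and heavy-strand medians, -0.49, was -0.84 with no filter and -0.02 at 5 FPKM. The machinery median, -0.13, was 0.20 under TPM, and the nuclear subunit median, -0.56, was -0.22 under TPM and -0.44 with own totals. The mitochondrial share was 9.37% in the library labelled BKO and 17.6% in the flox/flox library for mRNAs only, and 9.51% and 18.0% among protein-coding genes. *mt-Nd3* reversed with its copy added, with log2 ratios of 0.12 alone and -1.80 with it, since most of the pair was counted for the copy in the flox/flox library. *mt-Tk*, with 3 fragments in each library, had a log2 ratio of -0.20, and 0.12 under TPM. Of 231 values of single genes under alternatives, these 2 changed direction, 229 kept it and 66 moved beyond the counting interval.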
